A study of Mus musculus with 12 samples.

Results

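The liver of the mouse embryo at E16.5 was set against the liver at postnatal day 3 (P3), across birth, by single-cell RNA sequencing with 10x Genomics droplets. All cell barcodes with at least 1000 unique molecular identifiers (UMIs) and at most 15% of UMIs from mitochondrial genes were kept, which left 184493 barcodes of the 301648 deposited, 113376 at E16.5 and 71117 at P3. The kept barcodes belonged to 9 libraries of the 12 deposited matrices, and the comparison was P3 minus E16.5 on UMI sums per library, without regard to genotype. The mice came from crosses of heterozygotes for the Jag1 Ndr allele, so that wild-type (Jag1+/+), heterozygous (Jag1Ndr/+) and homozygous (Jag1Ndr/Ndr) animals were all present. Jag1 encodes Jagged1, a Notch ligand needed for bile duct formation.

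The 5 fetal libraries were 1 of Jag1+/+ mice (replicate 1), 1 of Jag1Ndr/+ mice (replicate 1), 2 of Jag1Ndr/Ndr mice and 1 whose counts were deposited identically as Jag1+/+ replicate 2 and as Jag1Ndr/+ replicate 2, here the shared library. The 4 postnatal ones carry the letters A, B, C and D. In library A, labelled Jag1+/+ replicate 1, 68.4% of the deposited barcodes were also in Jag1Ndr/Ndr replicate 1 and 62.2% in Jag1Ndr/Ndr replicate 2. In library B, labelled Jag1+/+ replicate 2, 73.8% were also in Jag1Ndr/Ndr replicate 2, and it held all 15754 barcodes of Jag1Ndr/+ replicate 2, so the genotype of A and B was unclear. Library C was Jag1Ndr/Ndr replicate 1 without the barcodes of A, and library D was Jag1Ndr/+ replicate 1. The homozygous pups at P3 had been picked by their jaundice, and the protocol describes TrypLE in the digestion at E16.5 but not at P3, dissection of spleens as well as livers at P3, and magnetic removal of dead cells at both stages. Stage therefore cannot be told apart from the digestion, from the sequencing of each stage or from its gene annotation, and p-values measure the spread between these libraries. The series' design states 2 individuals per genotype and stage, which the overlapping matrices do not bear out for every label. Values per library are given below in a fixed order. It runs Jag1+/+, shared, Jag1Ndr/+, Jag1Ndr/Ndr replicate 1 and Jag1Ndr/Ndr replicate 2 for E16.5, and alphabetically for P3.

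The fetal liver is the main site of blood formation, and its hepatocytes are surrounded by erythroid islands around macrophages. Around birth blood formation moves toward bone marrow and spleen, the placental supply of glucose ends, and milk, rich in fat, becomes the source of energy. Hepatocytes then turn on gluconeogenesis, fatty acid oxidation, ketone production and bile acid handling, while gut microbes and a growing lymphoid system bring new immune signals to the liver.

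Total UMIs on shared genes ranged from 72753365 in library D to 250981319 in Jag1Ndr/+ replicate 1 at E16.5. The median per barcode lay between 5325 and 9256 UMIs at E16.5 and between 2961 and 6235 at P3. Different gene annotations had been used, with 31053 gene identifiers listed at E16.5 and 22597 at P3, and the 22519 listed at both carried at least 98.1% of kept UMIs in each library. No pair of libraries shared more than 0.940% of the kept barcodes of the smaller. The 14 hepatocyte markers made up between 0.386% and 0.854% of UMIs at E16.5 and between 0.114% and 0.191% at P3. The 10 globin genes took 29.6% to 54.8% of fetal and 15.9% to 23.7% of postnatal UMIs. Jag1 itself, summed over all cells, was measured at 1.07, 1.50, 1.11, 1.28 and 1.23 CPM (a gene's UMIs relative to the library's total) at E16.5 and 0.451, 0.489, 0.253 and 0.180 CPM at P3. Library B also held transcripts of 14 pancreas genes at 0.0269% of its UMIs, against at most 7.44e-05% in any other library.

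Each library's UMIs were summed over all its cells, giving a whole-liver value in CPM on edgeR's effective library size, that is the total scaled by the trimmed mean of M-values (TMM). In such sums fewer cells of a type and less RNA per cell cannot be told apart. Of 14504 genes tested with edgeR's quasi-likelihood test, 7835 (54.0%) passed a Benjamini-Hochberg adjusted p of 0.05, 4000 (27.6%) higher and 3835 (26.4%) lower at P3, and 6245 (43.1%) passed with no overlap between the libraries of the stages. A difference of at least 2-fold was called higher for 1240 genes (8.55%) and lower for 1836 (12.7%). The balance of directions depended on the scaling. With plain library totals in place of TMM, 6971 genes were higher and 1169 lower, so that 85.6% of calls were rises against 51.1% with TMM, and the median log2 fold change of all genes moved from 0.02 to 0.61. With every barcode given equal weight, also without TMM, it was 0.38. That setting used log2 of CPM plus 1, which draws log2 fold changes of genes near or below 1 CPM toward 0. Then 6834 genes were higher and 1118 lower, so that 85.9% of calls were rises. Plain totals moved all genes alike. Relative to the median of all genes, all 28 gene lists kept their sign without TMM, and none moved by more than 0.16, so counts of rises and falls under that scaling carry the common shift. With equal weight 23 of 28 lists kept their sign, and the part of the added 1 CPM in the other changes was not tested. Counts of rises and falls under equal weight are read beside its 85.9% of rises among calls. Against such a background a called gene is common, and the counts in each of 28 gene lists are therefore read beside these shares and beside the median of 0.02.

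**Figure D1:**
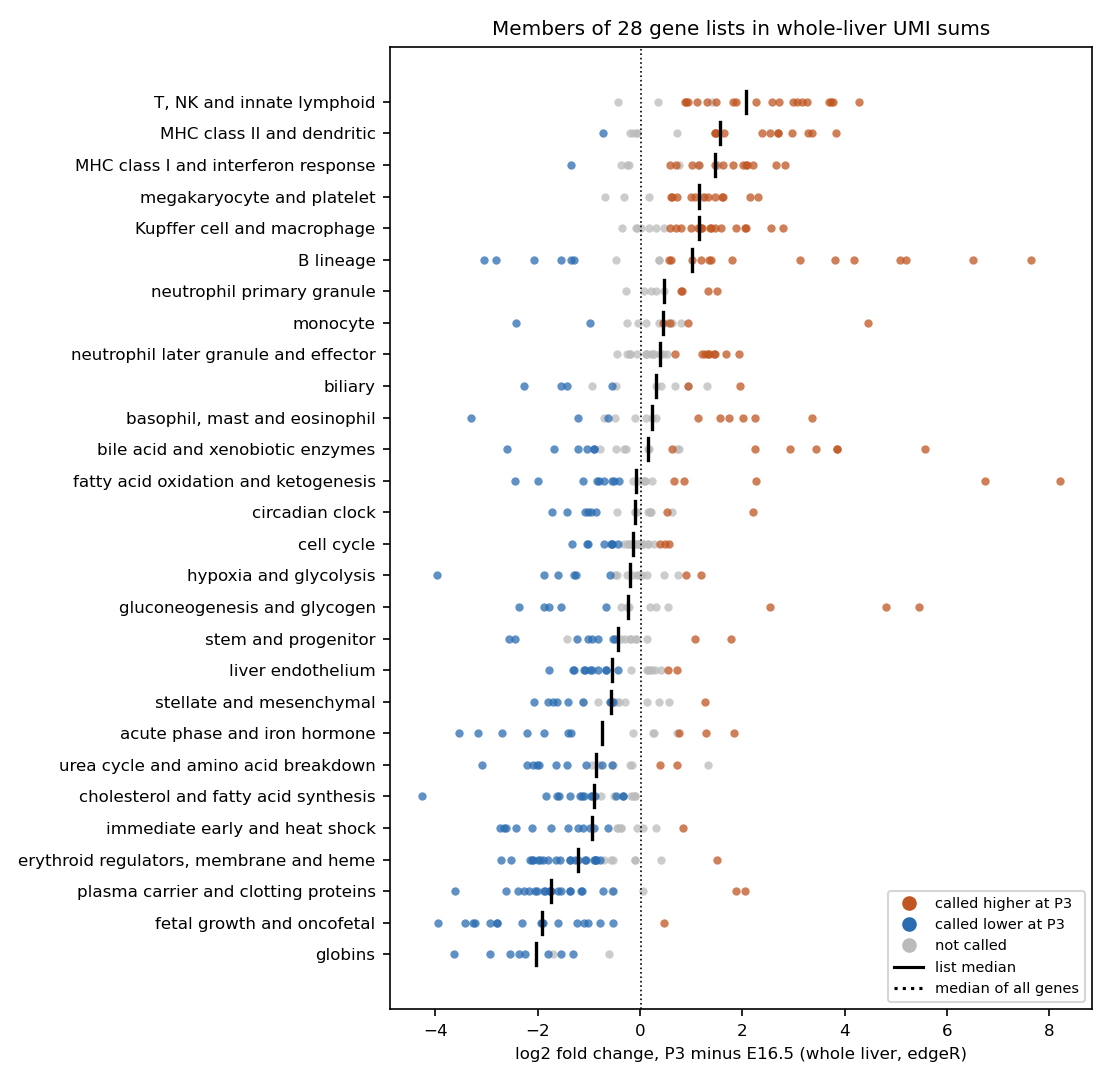
Members of the 28 gene lists, with the log2 fold change of P3 over E16.5 in whole liver on the x axis, 1 point per tested gene coloured by its edgeR call, a mark at each list's median and a line at the median of all genes (0.02). The fetal growth and plasma protein lists lie to the left with medians of -1.92 and -1.74, and the T and NK list lies farthest to the right at 2.07.

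The makeup of the cells differed between the stages. Barcodes were clustered separately at each stage, clusters were named from marker genes with "-like" in each name, and called doublets were then left out. Clusters with over 50% called doublets were removed whole, among them 2 neutrophil clusters of 1204 and 1088 barcodes at P3 and 1 of 228 at E16.5, and with doublets kept the log2 fold change of the neutrophil-like share was 0.98 instead of 0.68. B-like cells rose from 8.94% ± 1.51 (SD, n = 5) to 16.9% ± 3.26 (SD, n = 4) of barcodes, and neutrophil-like cells from 10.1% ± 1.65 to 16.1% ± 4.09. Hepatocyte-like cells fell from 3.15% ± 0.484 to 1.58% ± 0.755 and basophil- and mast-like cells, whose E16.5 cluster also held progenitor genes, from 1.46% ± 0.297 to 0.408% ± 0.0932. In edgeR's test on barcode numbers 8 of 10 classes passed (80.0%), 4 higher (40.0%) and 4 lower (40.0%) at P3.

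The erythroid-like class was the largest at both stages, with 60.1% ± 4.39 of barcodes at E16.5 and 47.9% ± 9.17 at P3, and that difference did not pass (log2 fold change -0.33, edgeR adjusted p = 0.146). Shares of B-like, basophil- and mast-like, endothelial-like and hepatocyte-like cells did not overlap between the stages. For B-like cells the log2 fold change was 0.92 (edgeR adjusted p = 0.000306), for hepatocyte-like cells -0.99 (0.000303), for basophil- and mast-like cells -1.83 (2.94e-09), for endothelial-like cells -0.66 (0.0113) and for mesenchymal-like cells -0.73 (0.00636). With called doublets kept the endothelial-like share did not pass (-0.48, edgeR adjusted p = 0.0731). In the mesenchymal-like class 17 of 20 endothelium genes fell (median -3.22, with 27.5% of all genes in the class called). In the endothelial-like class 13 of 13 mesenchymal genes rose (2.26, with 34.4% called). Whether these 2 classes held matching cells at both stages was not tested. The E16.5 cluster behind the basophil- and mast-like class also held lymphocyte genes such as Gzma and Trbc2 and had Hmga2 and Ctla2a among its 10 leading genes, and 15 of 16 stem and progenitor genes fell in the class with no rise (median -2.99, with 40.5% of all genes in the class called). At a finer clustering resolution 1200 fetal barcodes led by Hmga2 and Ctla2a stayed unnamed and 228 were named basophil- and mast-like, and the difference in the share then had the other sign and did not pass (log2 fold change 0.74, edgeR adjusted p = 0.0894). At P3 a cluster of 1048 barcodes led by Hmga2 and Cd34 stayed unnamed at the main resolution, so the fall in that share compares unlike clusters. Macrophage-like cells went from 4.77% ± 0.519 to 6.73% ± 2.06 and monocyte-like cells from 2.78% ± 0.785 to 3.90% ± 1.06, both with an edgeR adjusted p of 0.0404 and with overlapping libraries. Neither passed without libraries A and B (0.572 and 0.105) or when any of several single libraries was left out, the macrophage-like share did not pass at the finer resolution (0.136), and the neutrophil-like share did not pass without A and B either (0.0843). The megakaryocyte-like share, at a log2 fold change of -0.47 (edgeR adjusted p = 0.0628), passed as lower at the finer resolution (-0.96, 0.00345) and without A and B together (-0.92, 0.00209). It also did so with the E16.5 shared library, library A or library B alone left out (0.0384, 0.0252 and 0.0365). Clusters of T and NK cells (1.27% to 1.97% of barcodes) and of dendritic cells (1.14% to 1.37%) were named at P3 and not at E16.5 at this resolution. At the finer resolution clusters of both kinds were named at E16.5 as well, a dendritic one of 786 barcodes led by Cd74 and H2-Aa and a T and NK one of 131 barcodes led by Gzma and Ccl5.

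The hepatocyte-like share depends on which clusters are counted. At E16.5 a cluster of 3743 barcodes, called doublets included, led by the liver genes Fabp1 and Gsta3 together with the erythroid gene Rhd had none of the fixed hepatocyte markers among its 10 leading genes and stayed unnamed, whereas at P3 a cluster led by Fabp1 and Serpina1a was named. With the unnamed cluster added, the share at E16.5 was 7.42%, 4.83%, 6.06%, 10.9% and 4.67% in the 5 libraries, against 2.53%, 1.84%, 1.00% and 0.949% at P3, and the log2 fold change was -2.09 (edgeR adjusted p = 6.06e-11). The share fell in both counts, but at the finer clustering resolution the difference did not pass (log2 fold change -0.78, edgeR adjusted p = 0.0519). Globin transcripts made up between 15.3% and 36.1% of UMIs in the hepatocyte-like class at E16.5 and between 10.9% and 22.9% at P3. With the unnamed cluster added, 40.5% of the genes tested in the class passed.

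**Figure D2:**
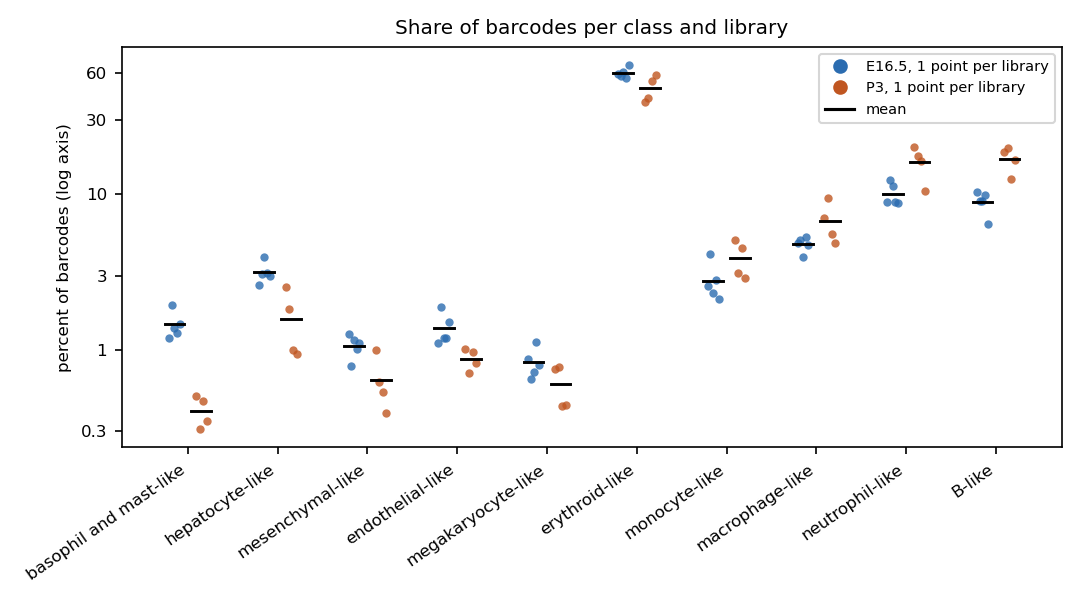
Share of barcodes in each named class, in percent on a log axis, with 1 point per library and a bar at the mean of each stage. B-like cells lie higher at P3 (16.9% against 8.94%) and hepatocyte-like cells lower (1.58% against 3.15%), each with no overlap between libraries.

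The fetal growth program was lower after birth. Of 18 tested genes of the fetal growth and oncofetal list, 17 fell, 1 rose, and the median log2 fold change was -1.92, against 12 falls and -0.86 with equal weight per barcode and 13 and -1.34 without TMM. Afp, alpha-fetoprotein, the major plasma protein of the fetus (chr5:90490737-90508907, GRCm38), was at 970.1, 1897, 1606, 1073 and 1928 CPM at E16.5 and 128, 63.8, 69.6 and 126 CPM at P3. Every P3 library lay below every E16.5 library, and the level was 15.4-fold lower at P3 (log2 fold change -3.95, SE 0.33, edgeR adjusted p = 1.28e-05). Dlk1, an imprinted membrane protein that marks hepatoblasts, was at 36.7, 55.0, 60.1, 43.7 and 71.3 CPM at E16.5 and 10.6, 4.21, 3.76 and 1.16 CPM at P3, with log2 fold change -3.43. Other imprinted or growth genes lay in the same direction. Among them were Igf2, a fetal growth factor (-3.25), Gpc3, a cell-surface proteoglycan (-2.92), Cdkn1c, an imprinted cell cycle inhibitor (-2.80), Mest (-2.79), Grb10, an imprinted brake on insulin and IGF signalling (-1.91), and Peg3 (-1.90). The exception was Igf2bp3, an RNA-binding protein, which rose by a log2 fold change of 0.46. Igf2 shares exon bases with a neighbouring gene model, so its reads may have been split between them.

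Plasma proteins made by hepatocytes were lower in the whole-liver sums. In the list of carrier and clotting proteins 21 of 25 genes fell, 2 rose, and the median was -1.74, against 17 falls and -0.95 with equal weight. Alb, serum albumin, was at 1643, 2634, 2514, 1973 and 2390.4 CPM at E16.5 and 229, 138, 146 and 215 CPM at P3. The libraries did not overlap, and Alb was 12.3-fold lower (log2 fold change -3.62, SE 0.24, edgeR adjusted p = 3.03e-06). Fibrinogen chains Fga and Fgg, the substrate of clotting, had log2 fold changes of -2.63 and -2.38, the iron carrier Trf -2.05 and the thyroid hormone carrier Ttr -1.87. The 2 that rose were Apoc3, an inhibitor of lipoprotein lipase (1.88), and Fetub, a protease inhibitor (2.05). Hpx, which carries free heme, was at 0.05 and did not pass. These falls stood beside the lower share of hepatocyte-like barcodes, and the sums alone do not separate the components.

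**Figure D3:**
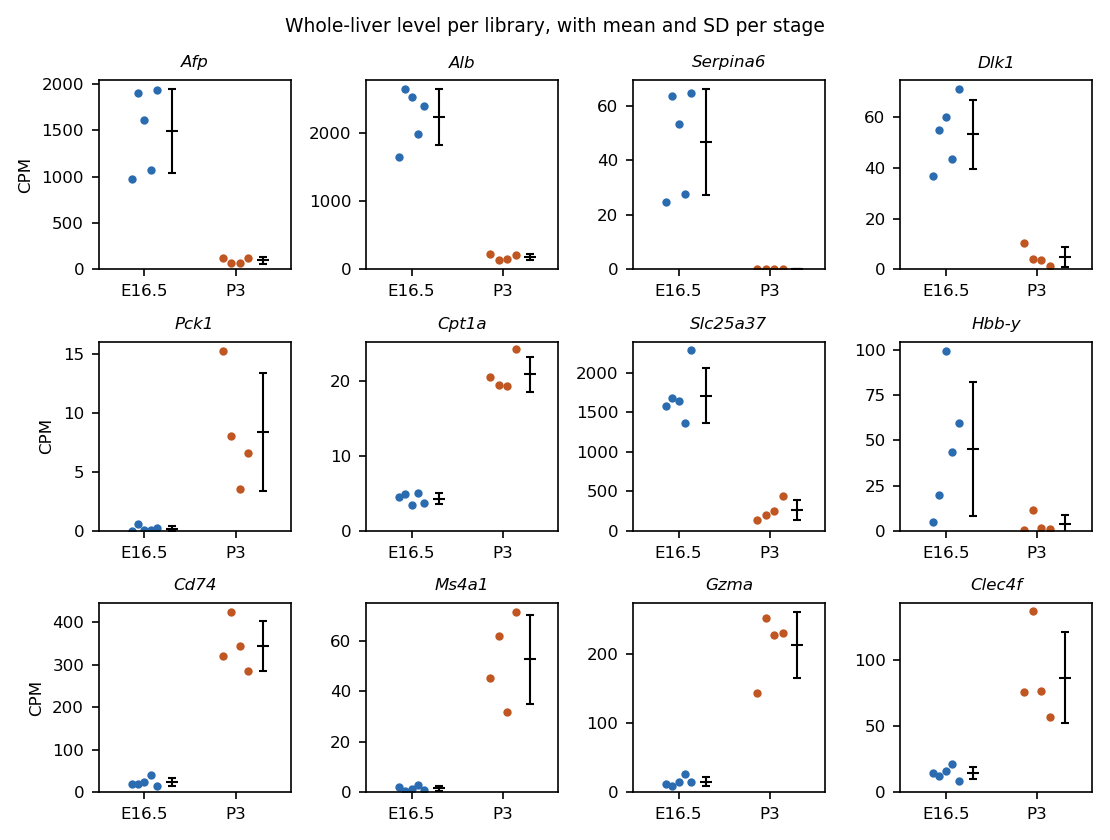
Whole-liver CPM of 12 genes in each of the 9 libraries, with the mean and SD of each stage (n = 5 at E16.5, n = 4 at P3). Afp, Alb and Serpina6 lie lower at P3 in every library, while Cd74, Ms4a1, Gzma and Clec4f lie higher in every library.

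Metabolic lists of the liver moved in mixed directions in the whole-liver sums. Gluconeogenesis and glycogen genes had 3 rises and 5 falls among 14 tested genes with a median of -0.24, and relative to all genes the list was at -0.26, but at 0.04 with 6 rises and 3 falls with equal weight per barcode. The 3 that rose were Pck1, the first committed enzyme of gluconeogenesis (5.46), G6pc, the catalytic subunit of glucose-6-phosphatase that releases free glucose (4.80), and Tat, which breaks down tyrosine (2.54). Pck1 was at 0.00676, 0.550, 0.119, 0.0423 and 0.214 CPM at E16.5 and 15.3, 8.05, 3.53 and 6.57 CPM at P3. All P3 libraries were far above all E16.5 libraries, and the adjusted p was 0.00021 in edgeR. Fatty acid oxidation and ketogenesis genes had 5 rises and 9 falls among 20, with a median of -0.09, and relative to all genes they were at -0.11, but at 0.0012 with 8 rises and 2 falls with equal weight. Its rises were led by Cyp4a14 (8.21) and Cyp4a10 (6.73), which hydroxylate the far end of fatty acids, and by Cpt1a, the gate of fatty acids into mitochondria (2.27).

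The urea cycle and amino acid list had 2 rises and 10 falls among 18 genes (median -0.87, but 5 falls and -0.21 with equal weight), with Cps1, the entry enzyme of the urea cycle, at -2.09 and Asl, argininosuccinate lyase, at 0.40. Cholesterol and fatty acid synthesis had 14 falls and no rise among 20 (median -0.90), against 5 falls without TMM and 6 with equal weight (both medians -0.34). In that list the sterol-sensing Insig1 (-1.59) and the desaturase Scd1 (-1.61) fell. Acute phase and iron genes had 3 rises and 7 falls among 14 (median -0.74, or -0.77 relative to all genes, and -0.20 with 7 rises and 5 falls with equal weight). Hp, haptoglobin, which binds free hemoglobin, and Hamp, hepcidin, the hormone that limits iron export, rose by 1.29 and 1.83 (Hamp did not pass without libraries A and B, edgeR adjusted p = 0.0689), while the metallothioneins Mt1 (-3.17) and Mt2 (-3.54) fell. Bile acid and xenobiotic enzymes had 7 rises and 6 falls among 21 (median 0.16, but -0.05 with globins left out and -0.10 without libraries A and B), against 10 and 2 without TMM and 11 and 1 with equal weight. Relative to all genes that list was at 0.14, but at -0.12 with equal weight.

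Within the hepatocyte-like cells most genes of bile acid handling, fatty acid oxidation and amino acid breakdown rose, and most genes of lipid synthesis fell. UMIs were summed per library over that class alone and fitted with edgeR, with adjustment over all pairs of class and gene (103791 pairs, of which 45.4% passed). In the hepatocyte-like class 10360 genes were tested and 4154 (40.1%) passed, 21.2% higher and 18.9% lower, with a median of 0.01. Bile acid and xenobiotic genes rose in 18 of 20 cases and fell in 1 (median 1.79), fatty acid oxidation in 15 of 20 with no fall (1.19), urea cycle and amino acid genes in 11 of 17 with 1 fall (0.84), and gluconeogenesis in 7 of 14 with 2 falls (0.62). Cholesterol and fatty acid synthesis fell in 16 of 20 with no rise (-1.31), and the fetal growth list fell in 13 of 16 with no rise (-1.67).

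Because globins made up that much of the class's UMIs, the comparison was repeated in the clusters of the class whose median UMI count was above that of their library, a choice made after the data were seen. These high-UMI clusters held between 89 and 220 barcodes in fetal and between 23 and 78 in postnatal libraries, and globins made up 4.74% to 7.91% of their fetal and 0.611% to 1.98% of their postnatal UMIs. In them 3599 of 9754 genes (36.9%) passed, 18.8% higher and 18.1% lower, with a median of -0.04. Bile acid and xenobiotic genes rose in 18 of 20 cases with no fall (median 2.37), and fatty acid oxidation genes in 15 of 20 with no fall (1.39). Plasma protein genes rose in 21 of 25 cases and fell in 1 (median 1.03), against 10 rises and 1 fall among 25 in the whole class (0.45) and 2 rises and 21 falls in the whole-liver sums (-1.74). Acute phase genes rose in 7 of 13 and fell in 4 (1.25).

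Pck1 and G6pc were close to undetected before birth. In the high-UMI clusters Pck1 was at 0.406, 13.6, 3.45, 0 and 4.003 CPM at E16.5 and 774, 724, 524 and 820.0 CPM at P3. The shared library was the highest of the fetal ones and still lay far below the lowest P3 library (log2 fold change 7.2, SE 0.57, edgeR adjusted p = 2.47e-07). G6pc was at 1.22, 0.445, 0.531, 1.76 and 0.534 CPM at E16.5 and 130.1, 80.5, 281 and 328 CPM at P3, a log2 fold change of 7.83. Fbp1, fructose-bisphosphatase, rose by 3.00 and Tat by 4.95. Glycogen synthase Gys2 was at 0.03 (edgeR adjusted p = 0.924) and did not pass, and glycogen phosphorylase Pygl fell by 0.66 on the log2 scale. Cebpb, a transcription factor of the same list, was at -1.38 (edgeR adjusted p = 0.00506).

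Fatty acid oxidation genes rose in the same cells. Cpt1a was at 17.9, 16.48, 16.7, 19.7 and 13.1 CPM at E16.5 and 304, 241, 348 and 408 CPM at P3 in the high-UMI clusters. The stages did not overlap, and the log2 fold change was 4.28 (SE 0.18, edgeR adjusted p = 3.81e-10). Cyp4a14, a fatty acid omega-hydroxylase and a textbook target of the receptor PPARalpha, was at 0, 0.445, 0.796, 0.704 and 0.267 CPM at E16.5 and 1132, 657, 613 and 647 CPM at P3. Fabp1, the fatty acid binding protein of liver, rose by 2.94 and Angptl4, an inhibitor of lipoprotein lipase, by 1.39. Acadm, medium-chain acyl-CoA dehydrogenase, was at -0.04 (edgeR adjusted p = 0.882) and Pdk4, which shuts glucose carbon out of the citric acid cycle, at -0.51 (edgeR adjusted p = 0.496), and neither passed.

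Most lipid synthesis genes were lower. In the high-UMI clusters 13 of 20 genes of the list fell and 1 rose (median -1.2, with 36.9% of all genes called). Scd1 was at 233, 194, 288, 146 and 155 CPM at E16.5 and 13.1, 6.52, 15.2 and 6.65 CPM at P3 in the high-UMI clusters. All P3 libraries were below all E16.5 libraries, with a log2 fold change of -4.23. Its relative Scd2 fell by 5.08, the citrate cleavage enzyme Acly by 2.65 and the fatty acid synthase Fasn by 1.05 on the log2 scale.

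Most genes of the carrier and clotting protein list were higher at P3 in the high-UMI clusters, with albumin as the only fall within that list. Plasma proteins outside the list, such as Afp, fell as well. Apoa4, an apolipoprotein of lipid-rich particles, was at 0.406, 0, 0.531, 0 and 0 CPM at E16.5 and 1411, 3036, 927 and 1141 CPM at P3, the largest log2 fold change by the naming rule in the hepatocyte-like class (12.34 in the class and 12.79 in its high-UMI clusters). Apoa5, a regulator of plasma triglyceride, rose by 9.09 in the class, and Igfbp2, which binds insulin-like growth factors, by 7.50. Apoa1, the main protein of HDL, was at 4942, 6359.5, 5636, 5035 and 6303 CPM at E16.5 and 21210, 26852, 22347 and 22600 CPM at P3 and rose by 2.04, and Ahsg, fetuin-A, rose by 1.73. Alb was the 1 gene of its list that fell. In the high-UMI clusters it was at 57670, 69931, 52657, 50929 and 66058 CPM at E16.5 and 26658, 24699, 37142 and 35806 CPM at P3, with no overlap (log2 fold change -0.94, SE 0.17, edgeR adjusted p = 0.000503), and Afp was at 31925, 50138, 32999, 26810 and 53415 CPM at E16.5 and 14335, 12425, 17301 and 21224 CPM at P3, lower by a log2 fold change of -1.26. Alb and Afp still led the high-UMI cluster at P3.

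Serpina6 had the largest fall by the rule in whole liver. It encodes corticosteroid-binding globulin, the plasma carrier of glucocorticoids (chr12:103646630-103657212). In the hepatocyte-like class it was at 624, 1205, 853, 622 and 1265 CPM at E16.5 and 3.84, 1.37, 4.80 and 6.03 CPM at P3, more than 2 orders of magnitude apart with no overlap (log2 fold change -7.92, SE 0.40, edgeR adjusted p = 4.06e-08). Dlk1 fell there by 6.79, the broad protease inhibitor A2m by 5.37, the trypsin inhibitor Spink1 by 4.01 and Tnnc1, a troponin, by 4.43 on the log2 scale. In whole liver Serpina6 was 1003-fold lower. Serpina6, A2m and Spink1 were each called at least 4-fold lower in all 10 classes, not only in hepatocyte-like cells. The part of free RNA or of annotation differences in these falls was not tested.

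Iron hormone, bile acid and detoxification genes rose. Hp was at 222, 118, 68.5, 159 and 147 CPM at E16.5 and 6286, 8995, 3653 and 5261 CPM at P3 in the high-UMI clusters and Hamp at 26.8, 13.1, 41.9, 164 and 51.5 CPM at E16.5 and 967, 1144, 988 and 2181 CPM at P3. Neither overlapped between stages, with log2 fold changes of 5.405 and 4.48. Slc10a1, the uptake carrier of bile acids, rose by 2.78, Abcb11, the bile salt export pump, by 2.18, and Cyp7a1, the rate-limiting enzyme of bile acid synthesis, by 2.08, although Cyp7a1 fell in the whole-liver sums (-0.89). Nr0b2, the receptor SHP that dampens bile acid synthesis, rose by 6.74, and Ugt1a1, which conjugates bilirubin, by 6.95. Ugt1a1 was at 0, 0, 0.265, 0 and 0.267 CPM at E16.5 and 6.93, 19.6, 6.10 and 59.8 CPM at P3. Library D was the highest for Ugt1a1, and the 4 P3 values were widely spread. Cyp2e1, a drug-metabolising cytochrome, was at 24.4, 6.23, 3.72, 7.39 and 9.61 CPM at E16.5 and 724, 600.2, 1025 and 674 CPM at P3, a log2 fold change of 6.26. In the urea cycle Asl rose by 1.95 and Hpd, an enzyme of tyrosine breakdown, by 2.75, while Cps1 (0.71, edgeR adjusted p = 0.158) and Ass1 (0.41, edgeR adjusted p = 0.318) did not pass. Ass1 was at 377, 351, 459.9, 421 and 408 CPM at E16.5 and 752, 872, 247 and 259 CPM at P3, with A and B above and C and D below every E16.5 library.

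**Figure D4:**
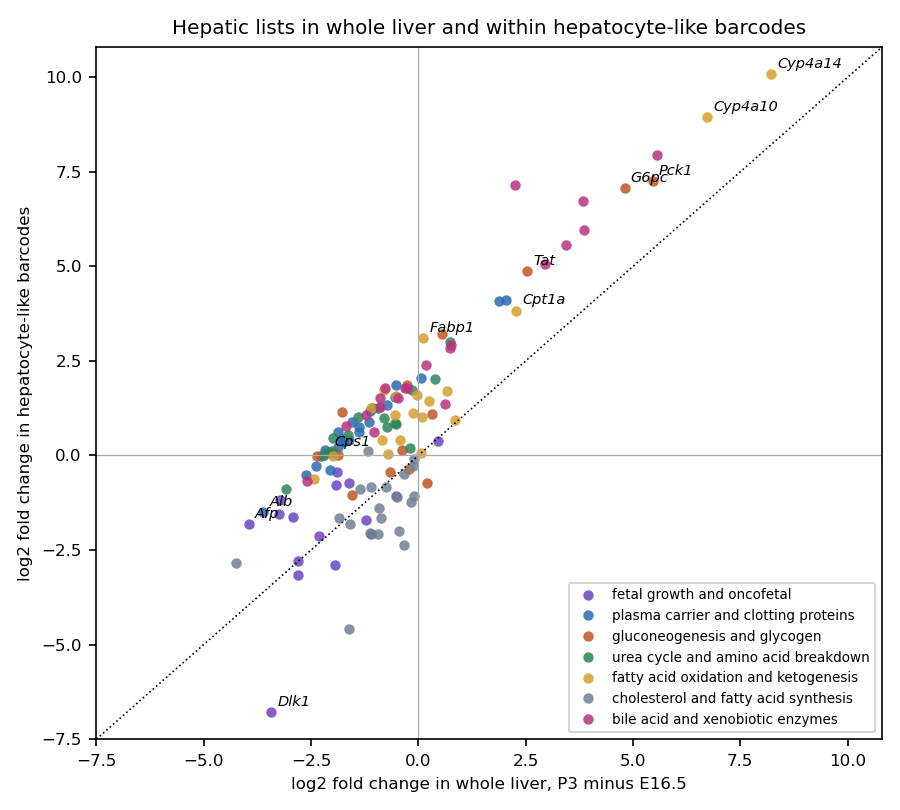
Log2 fold change of P3 over E16.5 in whole liver (x axis) against that within the hepatocyte-like class (y axis) for genes of 7 hepatic lists, 1 point per gene. Fabp1 and Cpt1a lie well above the diagonal (3.11 and 3.83 within the class), and Afp lies low on both axes (-3.95 and -1.82).

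Transcripts of other cells were measured in the hepatocyte-like class too. The B lineage list rose there in 14 of 17 cases (median 2.40) and Igkc, an immunoglobulin light chain, by 6.28. Among 29 erythroid genes 11 fell and 1 rose in the class (median -0.44). In its high-UMI clusters 28 of 29 erythroid genes fell (median -2.37), and cell cycle genes fell in 22 of 26 cases and rose in 1 (median -1.24), against 7 falls and 1 rise in the whole class (-0.14). Conversely the plasma protein list fell in 22 of 25 cases in the erythroid-like class (median -2.75, with 59.1% of all genes in that class called and 31.1% higher), in 19 of 24 in the neutrophil-like class (-1.20, 50.2% called) and in 21 of 21 in the megakaryocyte-like class (-3.45, 40.3% called, 19.9% higher and 20.4% lower). Alb within erythroid-like cells was at 678, 591, 856, 1236 and 576 CPM at E16.5 and 43.6, 33.4, 23.1 and 17.8 CPM at P3. The part of free RNA in any of these differences was not tested.

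Globins and the erythroid program were lower at P3. Of 10 globin genes 8 fell and none rose in whole liver (median -2.03), and of 29 regulators, membrane proteins and heme enzymes 22 fell and 1 rose (median -1.21). With equal weight per barcode 3 globins and 12 of the 29 fell (medians -0.71 and -0.87), and without TMM 6 and 14 (-1.29 and -0.61). The embryonic chain Hbb-y was at 4.86, 19.7, 99.5, 43.3 and 59.5 CPM at E16.5 and 0.685, 11.5, 1.53 and 0.859 CPM at P3. Its fetal libraries ranged widely, library B was the highest at P3, and the stages overlapped although the gene passed (log2 fold change -3.63, SE 1.04, edgeR adjusted p = 0.0123). The adult chain Hbb-bt was 5.17-fold lower and Hbb-bs 3.50-fold lower. Reads of the near-identical Hba-a1 and Hba-a2 may be split between the copies, so their separate values are uncertain.

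Slc25a37, mitoferrin-1, which brings iron into mitochondria for heme, was at 1583, 1679.9, 1639.6, 1365 and 2289.7 CPM at E16.5 and 143, 206, 254 and 442 CPM at P3. The libraries did not overlap, and it was 6.55-fold lower (log2 fold change -2.71, SE 0.32, edgeR adjusted p = 6.83e-05). Also lower were Kel, a blood group protein (-2.52), Epor, the erythropoietin receptor (-2.11), Tfrc, the transferrin receptor (-1.99), and Slc4a1, the band 3 anion exchanger (-1.96). Car1, carbonic anhydrase 1, was the 1 that rose (1.50). The transcription factors Gata1 (-0.11, edgeR adjusted p = 0.713) and Klf1 (-0.53, edgeR adjusted p = 0.0995) did not pass.

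Within the erythroid-like class the same lists had 7 falls and no rise among 9 globins (median -1.89) and 22 falls and 2 rises among 29 other genes (median -1.11). Slc25a37 was at 2583, 2199.6, 1757, 2833 and 2553 CPM at E16.5 and 285, 341, 338 and 545 CPM at P3 there, and Epor at 74.9, 84.5, 68.6, 78.0 and 73.2 CPM at E16.5 and 26.8, 20.3, 21.5 and 23.4 CPM at P3. Both were lower in every P3 library (-2.66 and -1.72). The class was not made of matching clusters at the stages. At P3 it held a cluster of 4198 barcodes, called doublets included, led by Mt2, Car1 and C1qtnf12, whereas an E16.5 cluster of 1708 barcodes led by C1qtnf12 and with Nolc1 and Minpp1 among its 10 leading genes stayed unnamed and was left out. By the naming rule the largest rises in the class were Ctse, cathepsin E (2.24), Car1 (1.96), Nolc1, a nucleolar protein (1.64), Aqp1, a water channel (1.53), and Rnaseh2a, a ribonuclease subunit (1.45). In the whole-liver sums, which do not depend on cluster names, the log2 fold changes were 2.06, 1.50, 0.68, 1.18 and 1.03 in that order, and only Aqp1 had libraries of the stages that overlapped. The part of the unmatched clusters in the values of the class was not tested. Among the largest falls were Fam220a (-5.24), which is listed under a further identifier at P3 only, Slc2a1, the glucose transporter GLUT1 (-4.19), Lars2, a mitochondrial leucyl-tRNA synthetase (-4.11) and the histone Hist1h2bc (-3.81). Slc2a1 was at 359, 295, 213, 244 and 373 CPM at E16.5 and 15.6, 20.6, 10.0 and 19.1 CPM at P3. It was lower at P3 in all 10 classes.

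Kupffer cell genes rose. In whole liver 17 of 24 genes of the Kupffer cell and macrophage list rose and none fell (median 1.15), against 24 of 24 with equal weight per barcode (2.08) and 21 without TMM (1.72). Of all calls, 85.9% were rises with equal weight and 85.6% without TMM. Clec4f, a lectin that marks mouse Kupffer cells, was at 14.9, 12.7, 15.96, 21.2 and 8.33 CPM at E16.5 and 76.1, 137, 76.4 and 57.4 CPM at P3. Every P3 library was above every E16.5 library (log2 fold change 2.57, SE 0.29, edgeR adjusted p = 5.96e-05). Vsig4, a complement receptor of resident macrophages, rose by 2.79, the scavenger receptors Cd163 and Marco by 2.08 and 1.87, and the complement chain C1qa by 2.05.

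In the macrophage-like class 16 of 24 genes of that list rose and none fell (median 0.96, with 52.7% of all genes in the class called). Clec4f was at 317, 242, 413, 411 and 143 CPM at E16.5 and 1493, 1860, 1447 and 1190.2 CPM at P3 and rose by 2.30. Vsig4 was at 169, 58.0, 114, 144 and 44.4 CPM at E16.5 and 695, 761, 461 and 569 CPM at P3 and rose by 2.56. Both were separated by stage, whereas Adgre1, the F4/80 antigen, was at 0.07 (edgeR adjusted p = 0.72) and Timd4, a receptor for dying cells, at 0.28 (edgeR adjusted p = 0.241). The interferon-responsive Irf7 was at 29.6, 18.5, 42.6, 67.2 and 25.6 CPM at E16.5 and 147, 308, 481 and 274 CPM at P3 and rose by 3.05. Cell cycle genes fell in 22 of 26 cases with no rise (median -1.15), among them Mki67, a marker of dividing cells (-1.40). Erythroid genes fell in the class in 26 of 29 cases (-2.03) and later neutrophil granule genes rose in 22 of 23 (2.45), and the part of RNA from those cells was not tested.

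In whole liver most neutrophil granule genes did not pass, and those that did were higher at P3. Of all genes 54.0% passed and 27.6% were higher. Of 9 primary granule genes 4 rose and none fell in whole liver (median 0.47), and of 23 later granule and effector genes 9 rose and none fell (0.39). The counts moved with the scaling, to 7 of 9 and 17 of 23 rises without TMM (medians 1.02 and 1.00). With equal weight per barcode they were 8 of 9 and 21 of 23 (0.94 and 1.39). Rises made up 85.6% of all calls without TMM and 85.9% with equal weight. Without libraries A and B the medians were 0.13 and 0.11, with 2 rises and 1 fall among the 9 and 7 rises and 3 falls among the 23. Elane, neutrophil elastase, was at 207, 217, 178, 195 and 191 CPM at E16.5 and 688, 461, 562 and 283 CPM at P3, with no overlap and a log2 fold change of 1.33. Chil3, a chitinase-like protein, rose by 1.94, Ly6g, the surface marker of mouse neutrophils, by 1.69, and Ngp, a granule protein, by 1.46. The alarmins S100a8 (0.53, edgeR adjusted p = 0.0657) and S100a9 (0.39, edgeR adjusted p = 0.26) did not pass. In the neutrophil-like class Elane was at 1326, 1102, 1131, 1359.9 and 1158 CPM at E16.5 and 2948, 2445, 3607 and 2407 CPM at P3, higher in every P3 library (1.23). Ifitm3, an interferon-induced membrane protein, rose by 2.21 and Thbs1, thrombospondin 1, fell by 2.64 on the log2 scale. Erythroid genes fell in that class in 29 of 29 cases (median -3.73).

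The B lineage list moved in both directions. Of 23 genes 14 rose and 6 fell in whole liver (median 1.01), against 17 and 3 with equal weight per barcode. All 6 that fell act in pro-B and pre-B cells or in commitment, namely the surrogate light chains Vpreb1 (-3.05), Vpreb2 (-2.82) and Igll1 (-2.06), the recombinases Rag1 (-1.55) and Rag2 (-1.29), and the transcription factor Ebf1 (-1.34). Ms4a1, the CD20 antigen of mature B cells, was at 2.08, 0.732, 1.28, 2.87 and 0.807 CPM at E16.5 and 45.3, 61.9, 31.8 and 71.3 CPM at P3. The libraries did not overlap (log2 fold change 5.08, SE 0.44, edgeR adjusted p = 1.43e-05). Light chains rose as well, with Igkc at 4.18 and Iglc1 at 5.20, and so did Fcmr, the Fc receptor for IgM (7.63). The lambda constant regions are near-identical copies, so their separate values are uncertain. Dntt, terminal transferase, which adds bases at V(D)J joins, rose by 3.13 from a level under 1 CPM, although it too acts in pro-B cells.

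Within the B-like class 14 of 23 genes of the list rose and 7 fell (median 0.81, with 50.7% of all genes called). Erythroid genes fell there in 24 of 29 cases with no rise (median -1.95), and Kupffer cell and macrophage genes rose in 18 of 22 and fell in 1 (1.69), and the part of RNA from those cells was not tested. Vpreb1 was at 1502, 1049, 1989.8, 1738 and 1336 CPM at E16.5 and 216, 133, 229.7 and 112 CPM at P3. Ms4a1 was at 18.9, 7.78, 11.5, 23.3 and 9.03 CPM at E16.5 and 346, 509.8, 241 and 625 CPM at P3. The first was lower and the second higher at P3 in every library, by log2 fold changes of -3.14 and 4.92. Il7r, the receptor that pro-B cells depend on, was at 0.19 (edgeR adjusted p = 0.417). The class was made of 2 clusters at E16.5, led by Vpreb1 and by Igkc, and of 4 at P3, where Ms4a1 was among the leading genes of 2. In 1 of these 2 clusters 48.3% of barcodes were called doublets and were left out.

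T, NK and innate lymphoid genes rose in 19 of 22 cases with no fall (median 2.07). Gzma, granzyme A, was at 12.0, 8.57, 14.9, 26.7 and 15.6 CPM at E16.5 and 144, 252, 227 and 231 CPM at P3, and Ccl5, a chemokine of cytotoxic lymphocytes, at 1.24, 1.80, 3.35, 6.24 and 1.78 CPM at E16.5 and 37.9, 63.5, 78.0 and 45.2 CPM at P3. All P3 libraries were above all E16.5 libraries for both (3.78 and 4.29). Trbc1 and Cd3g, of the T cell receptor complex, rose by 2.72 and 2.27, and the NK receptors Ncr1 and Klrb1c by 3.06 and 2.98. At E16.5, where a T and NK cluster was named apart only at the finer clustering resolution, Gzma in the basophil- and mast-like class was at 393, 272, 542, 768 and 557 CPM at E16.5 and 6.22, 11.3, 7.98 and 0 CPM at P3.

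Class II antigen presentation genes rose in whole liver and in several classes, but fell in the monocyte-like class. MHC class II and dendritic genes rose in 12 of 18 cases and fell in 1 (median 1.56). Cd74, the invariant chain, was at 19.2, 20.9, 24.3, 41.6 and 15.9 CPM at E16.5 and 322, 425, 345 and 286 CPM at P3, 14.1-fold higher at P3 with no overlap (log2 fold change 3.82, SE 0.27, edgeR adjusted p = 4.81e-06). Ciita, the master activator of class II genes, rose by 3.36. In B-like cells 9 of 12 tested genes of the list rose and none fell, with a median of 4.49 (50.7% of all genes called), and Cd74 was at 17.7, 4.57, 15.1, 27.7 and 5.38 CPM at E16.5 and 1215, 2118, 1072 and 1507 CPM at P3 there. In macrophage-like cells 9 of 12 rose and 1 fell (median 1.93, with 52.7% called), with Cd74 at 3.11, 9.54, 13.5, 8.11 and 3.81 CPM at E16.5 and 85.1, 65.5, 187 and 83.0 CPM at P3. These levels in macrophage-like cells lay below those of whole liver at P3. Cd74 was called higher in 9 of 10 classes, and the list also rose in 7 of 11 cases in erythroid-like cells and in 8 of 12 in neutrophil-like cells, so a rise within a class does not by itself place the transcripts in its cells. The part of free RNA was not tested. In monocyte-like cells 13 of 17 fell and 1 rose (median -2.54, with 50.4% of all genes in the class called), with Cd74 at 329.9, 312, 590.1, 662 and 358 CPM at E16.5 and 73.3, 82.3, 132 and 112 CPM at P3 (-2.18). That class held Cd74 among the leading genes of its E16.5 cluster, whereas a dendritic cluster was named apart at P3. In the basophil- and mast-like class 4 of 9 rose and 4 fell (median -0.90, with 40.5% called).

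MHC class I and interferon response genes rose in 13 of 21 cases and fell in 1 (median 1.47). Irf7, a factor that amplifies interferon responses, was at 5.50, 3.29, 8.77, 13.9 and 6.57 CPM at E16.5 and 18.6, 50.7, 85.7 and 36.5 CPM at P3, and the peptide transporter Tap1 at 4.82, 4.66, 4.64, 7.63 and 3.75 CPM at E16.5 and 12.9, 22.5, 25.7 and 24.3 CPM at P3. Both were higher at P3 in every library (2.65 and 2.07). Nlrc5, the activator of class I genes, rose by 2.83, H2-K1 by 1.81 and H2-D1 by 0.71, whereas B2m, the shared light chain, was at -0.21 (edgeR adjusted p = 0.305). H2-T23, the nonclassical molecule Qa-1, was the 1 that fell (-1.35). Class I genes are close copies of each other, so that reads may be split between them.

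Ciita and Nlrc5 act on a shared promoter module of class I and class II genes whose last element is the Y box, bound by NF-Y. As the modules Ciita and Nlrc5 act on lie there, the 150 bases before the start of 2 class I and 2 class II genes are shown, from RefSeq promoters (GRCm38.p6). Capitals mark matches to CTGATTGG, 1 form of the Y box motif. It was searched on both strands, and CCAATCAG is the same motif on the reverse strand. In the 2 class II genes the match lies on the gene's own strand, in the 2 class I genes on the opposite strand. Whether a match is the Y box of the module or another site was not tested, least of all for the class I genes.
H2-Aa (class II, rose by 2.69; chr17:34287824-34287973, minus strand): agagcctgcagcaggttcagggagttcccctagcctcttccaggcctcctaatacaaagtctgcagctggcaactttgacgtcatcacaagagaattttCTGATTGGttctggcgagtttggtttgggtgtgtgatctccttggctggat
H2-Eb1 (class II, rose by 2.98; chr17:34305717-34305866, plus strand): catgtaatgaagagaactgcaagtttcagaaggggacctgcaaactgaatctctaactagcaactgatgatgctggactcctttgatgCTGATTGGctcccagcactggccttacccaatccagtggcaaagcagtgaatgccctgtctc
H2-D1 (class I, rose by 0.71; chr17:35262944-35263093, plus strand): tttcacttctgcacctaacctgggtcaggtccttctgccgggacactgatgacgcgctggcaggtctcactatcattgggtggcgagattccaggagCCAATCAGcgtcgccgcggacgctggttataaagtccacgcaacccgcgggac
H2-T23 (class I, fell, log2 fold change -1.35; chr17:36032702-36032851, minus strand): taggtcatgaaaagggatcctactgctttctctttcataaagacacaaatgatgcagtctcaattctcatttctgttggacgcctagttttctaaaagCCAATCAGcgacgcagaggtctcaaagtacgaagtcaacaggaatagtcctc
In the 250 bases before the start, the motif was found in 3 of 15 genes of the class II list that matched by symbol (20.0%) and in 6 of 17 of the class I and interferon list (35.3%), against 1198 of 27025 promoters in all (4.43%). H2-T23 holds it and fell while H2-D1 holds it and rose. A match describes these letters and no binding was measured.

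Endothelial and mesenchymal lists were lower in the sums. With equal weight per barcode both medians changed sign, but relative to all genes only the endothelial one did. Among 20 liver endothelium genes 11 fell and 2 rose (median -0.55, or -0.57 relative to all genes, but 0.23 with 9 rises and no fall with equal weight), and among 21 stellate and mesenchymal genes 9 fell and 1 rose (median -0.56, or -0.58 relative to all genes, and -0.14 with 7 rises and 1 fall with equal weight). Within the endothelial-like class the endothelium list instead had 11 rises and 1 fall among 20 (median 0.50, with 34.4% of all genes called). Clec4g, a lectin of sinusoidal endothelium, was at 185, 126, 148, 133 and 117 CPM at E16.5 and 466, 423, 611 and 508 CPM at P3, higher at P3 in every library (1.83). Wnt2, a Wnt ligand of the central vein side, rose by 1.94 and Stab2, which clears hyaluronan, by 0.52. Sox18, a factor of vessel development, was at 173, 143, 122, 151 and 138 CPM at E16.5 and 12.5, 12.3, 6.84 and 8.79 CPM at P3 and fell by 3.82 on the log2 scale. Mesenchymal genes rose in the same class in 13 of 13 cases (median 2.26), for example Dcn, decorin (4.35). Later neutrophil granule genes rose there in 16 of 18 cases with no fall (1.71), and erythroid genes fell in 22 of 29 with no rise (-1.06). The part of RNA or of doublets from mesenchymal and these other cells was not tested.

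The monocyte-, mesenchymal- and basophil- and mast-like classes held genes of other types among the largest changes. In the mesenchymal-like class the endothelial genes Cdh5 and Lyve1 were lower at P3 (-5.37 and -4.75), and its cluster at P3 was led by Ins2 and Ins1, the insulin genes of pancreas, which were found in library B. Biliary genes were near the floor in whole liver. There Krt19, a bile duct keratin, was at 0.108, 0.0786, 0.593, 0.600 and 0.391 CPM at E16.5 and 1.64, 1.401, 0.334 and 0.0636 CPM at P3, with no call (edgeR adjusted p = 0.184). Of 13 tested biliary genes 2 rose and 4 fell, against 5 and 1 without TMM and 6 and 1 with equal weight. Relative to all genes the list was at 0.28, but at -0.16 with equal weight. As equal weight used log2 of CPM plus 1, changes of genes near the floor are drawn toward 0 there, so the 2 values are not on the same scale. Without libraries A and B it moved by 0.98 relative to all genes and changed sign. No cholangiocyte cluster was named at either stage. In the mesenchymal-like class, however, 4 of 4 tested biliary genes rose (median 3.99, with 13.7% of all genes in the class higher). The part of other cells in that rise was not tested.

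Platelet genes rose in 12 of 16 cases with no fall (median 1.15), but in 7 with 1 fall under equal weight per barcode (median 0.48, against 0.38 for all genes). Pf4, platelet factor 4, was at 178, 293, 216, 134 and 259.5 CPM at E16.5 and 584, 321, 453 and 357 CPM at P3, with no overlap (0.99). In the megakaryocyte-like class 14 of 16 rose and 1 fell (median 1.44, with 40.3% of all genes called), although the share of that class did not pass. Erythroid genes fell there in 23 of 29 cases and rose in 3 (median -2.30), globins fell in 5 of 6 and plasma protein genes in 21 of 21, and their part in the other changes was not tested. Myl9, a myosin light chain, was at 166, 166, 177, 323 and 210.3 CPM at E16.5 and 1622, 1221, 4098 and 1415 CPM at P3 there, with library C the highest.

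Stem and progenitor genes had 8 falls and 2 rises among 18 (median -0.44, or -0.46 relative to all genes, and -0.26 with 2 falls and 5 rises with equal weight). Mllt3, a factor that supports blood stem cells, was at 182, 119, 272, 143 and 183 CPM at E16.5 and 16.7, 26.7, 33.8 and 44.2 CPM at P3, a log2 fold change of -2.57. It was also among the 10 leading genes of an erythroid-like E16.5 cluster of 15457 barcodes, called doublets included, led by Hba-a2 and Hbb-bs. The level of Mllt3 in the sums is therefore not that of stem cells alone, and the part of erythroid-like cells in its fall was not tested. Cell cycle genes had 8 falls and 3 rises among 26 (median -0.14, or -0.17 relative to all genes, and -0.33 with 4 falls and 3 rises with equal weight), and Mki67 was at -0.23 (edgeR adjusted p = 0.461). The median of the cell cycle list changed sign without libraries A and B.

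Immediate early and heat shock genes had 12 falls and 1 rise among 20 (median -0.94, or -0.97 relative to all genes, and -0.35 with 5 falls and 4 rises with equal weight). Zfp36, which destabilises inflammatory mRNAs, was at 102, 94.3, 85.6, 106 and 71.7 CPM at E16.5 and 24.7, 11.9, 8.19 and 10.1 CPM at P3. It was lower in every P3 library (-2.74). Hspa1a and Hspa1b, near-identical heat shock genes, fell by 2.63 and 2.65 on the log2 scale, and Hspa8, the constitutive chaperone, rose by 0.84. In the high-UMI hepatocyte-like clusters Fos was at 255, 538, 336, 259 and 418 CPM at E16.5 and 31.6, 76.1, 30.5 and 46.5 CPM at P3. Genes of this kind are known to respond to tissue handling, and the difference in digestion cannot be told apart from stage.

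Clock genes had 2 rises and 6 falls among 17 (median -0.09, or -0.11 relative to all genes), but 7 rises and no fall with equal weight (-0.04 relative to all genes), and hypoxia and glycolysis genes 2 rises and 6 falls among 18 (median -0.20, or -0.23 relative to all genes), but 5 and 4 with equal weight (-0.25). Within the latter, Slc2a1 was at 226, 221, 197, 132 and 334 CPM at E16.5 and 11.7, 16.3, 11.3 and 17.8 CPM at P3, 15.6-fold lower, Bnip3, a mitophagy receptor induced by low oxygen, fell by 1.87 on the log2 scale, and Vegfa, a vessel growth factor, by 1.26. Pkm, pyruvate kinase of proliferating cells, rose by 1.19, and Ldha, lactate dehydrogenase, was at -0.05 (edgeR adjusted p = 0.767).

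By fold change alone, the largest whole-liver rises among genes reaching 20 CPM were Atp6v0c, a proton pump subunit (7.99, chr17:24163866-24169702), Nanp, a sialic acid phosphatase (6.28), and Timm23, of the mitochondrial import pore (5.34), ahead of Iglc1, Ms4a1, Igfbp2, Ccl5, Igkc, Cd74 and Iglc3. Atp6v0c was at 0.980, 1.33, 1.33, 0.903 and 1.75 CPM at E16.5 and 348, 315, 340.1 and 282 CPM at P3. These first 3 genes were called at least 4-fold higher in all 10 classes. The stages were counted against different annotations. None of the 3 shares exon bases on the same strand with a gene listed at 1 stage only, and the part of other annotation differences was not tested.

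The largest falls were Serpina6, Mzb1 (-8.41), A2m (-7.59), Sssca1 (-6.98), Ptp4a1 (-6.64), Spink1 (-6.13), Fam220a (-4.94), Slc2a1, Afp and Rbp2 (-3.76). Of these, Mzb1, a chaperone of antibody-making cells, shares 459 exon bases on the same strand with a gene listed only at P3, which had 0 UMIs. Sssca1, Ptp4a1 and Fam220a share 410, 3022 and 1775 exon bases with an entry of the same symbol under another identifier that is listed only at P3. Those entries held 73, 94 and 2137 UMIs over the P3 libraries, against 143, 384 and 5526 for the identifiers compared here. Each of the 4 genes was lower in all 10 classes, but a lower level of the transcript cannot be told apart from the difference in annotation for them. Among the 35 tested genes with such a P3-only partner 16 were lower, 10 of them at least 4-fold, and 8 were higher, 1 of them at least 4-fold. Among the 14431 tested genes with no partner listed at 1 stage only, 3814 were lower, 488 of them at least 4-fold, and 3981 higher, 312 of them at least 4-fold. The part of read assignment in these falls was not tested.

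In absolute terms the largest rises in CPM included Ngp and the ribosomal genes Rplp0 (1.06), Rpsa (0.72) and Rpl8 (0.74). Rplp0 was at 1984, 1322, 2442, 2227 and 1919.7 CPM at E16.5 and 3520.1, 4112, 4575 and 4273 CPM at P3. The largest falls in CPM were Hbb-bs, Hba-a1 and Hbb-bt, the histone H3f3a (-1.50) and Mt1. Mt1, which binds zinc and copper and is abundant in fetal liver, was at 1919, 2204, 2537, 1360 and 3941 CPM at E16.5 and 302, 247, 238 and 279 CPM at P3, lower in every P3 library and called lower in all 10 classes.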

How the data were processed

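Single-cell RNA sequencing with 10x Genomics droplets measured mouse liver at E16.5 and P3. The deposited matrices hold UMI counts per gene and barcode, made by the authors without normalization. Per the submitters' processing notes Cell Ranger 2.1.1, Seurat, R 4.1.2 and the mm10 genome were used, whereas the file headers name 10x software 3.1.0 for E16.5 and 3.0.2 for P3. The conflict was not resolved. Gene coordinates are from GENCODE M21 (GRCm38), matched by identifier.

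Barcodes under 1000 UMIs or over 15% mitochondrial UMIs were dropped, and genes listed at both stages were used. Doublets were marked per library with Scrublet in scanpy 1.11.5 (5.18% to 34.3% of barcodes at E16.5, 2.12% to 9.50% at P3) and left out after clusters were named, but kept in whole-liver sums. Clusters came from Leiden (leidenalg 0.10.2, resolution 1) per stage, and the authors' cell types were not used here. Counts were summed per library and class (at least 30 barcodes, except in the added high-UMI set) and tested with edgeR 4.0.16 (quasi-likelihood, TMM, filterByExpr), with Benjamini-Hochberg adjustment. In simulated whole-liver counts 50 genes were changed at each of -2, -1, 1 and 2 on the log2 scale, and all others were left unchanged. There the test recovered 62% of genes changed by 1 and 94% to 96% of those changed by 2, and called 0.0704% of unchanged genes. In counts simulated likewise for hepatocyte-like cells it recovered 43.8% of genes at -1, 64% at 1, 87.0% at -2 and 96% at 2. It called 0.0200% of unchanged genes there. Both simulations had far fewer changed genes than were called in the data and no shift in makeup between stages. These rates therefore need not hold for the data. Alternatives were DESeq2 1.42.0, plain totals, equal weight per barcode (limma 3.58.1 on log2 of CPM plus 1), other filters, left-out libraries and a replicate block.

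The members and gene lists were chosen with earlier results of these data known. Named genes were, in whole liver, the 10 largest called rises and falls without overlap and at least 20 CPM, the 5 largest in CPM and up to 4 called members per list, and in classes the 10 (hepatocyte-like) or 5 largest at 50 CPM or more. Other list members named were chosen after their values were seen. Mitochondrial, Xist and Y-linked genes and receptor segments were not named. Some genes of the lists are not reported here by name. 6 list genes not listed at both stages and 1 whose symbol names 2 identifiers were not analysed here. Promoter sequences are from RefSeq (GRCm38.p6).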

Additional observations from a re-analysis of the deposited data

Results flagged for a closer look

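In 484 groups of 4 or 5 libraries, 35 held 1 library far from the others by Dixon's test at the 95% level, and chance flags about 1 in 20 groups. In whole liver 16 of 242 groups stood out. Library A was the highest at P3 for Gpc3 (6.86 CPM), Cebpb (97.1), Cth (2.86), Cyp2e1 (7.68) and Meis1 (5.24). Library B was the highest for the embryonic globins Hbb-y (11.5 CPM) and Hba-x (11.6), the lowest for the adult globin Hbb-bs (76970) and highest for Gzmb (16.1), and library D was the highest for Scd1 (9.73). At E16.5 the shared library was apart for Oit3 (11.2 CPM), Bmp2 (10.6) and Prss34 (18.96), Jag1Ndr/Ndr replicate 1 for Gzmb (2.81) and Tap1 (7.63), and Jag1Ndr/+ replicate 1 for Ngp (2614).

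Within classes 18 of 218 groups stood out. In hepatocyte-like cells library C was low for Pck1 (274 CPM) and Ankrd55 (75.7), library A was high for Cyp4a10 (212), library B was the only P3 library with Ptp4a1 (1.37), and Jag1Ndr/Ndr replicate 1 at E16.5 was apart for Cyp4a10 (1.34) and was the only one with Serpina3m (0.446). In megakaryocyte-like cells library C was high for Myl9 (4098) and Ttll11 (128), and Jag1Ndr/Ndr replicate 1 for Myl9 (323). In erythroid-like cells Jag1Ndr/Ndr replicate 1 was high for Ctse (60.1) and library B for Fam220a (16.01). The others were Iglc2 in B-like cells of Jag1Ndr/+ replicate 1 (3.86), Ptp4a1 in basophil- and mast-like cells of library B (8.47), Npl in endothelial-like cells of library A (27.6), Clec3b in mesenchymal-like cells of Jag1Ndr/Ndr replicate 2 (3.76), Rpl9-ps6 (135) and Siglech (0.453) in monocyte-like cells of library A, and Rpa3 in neutrophil-like cells of library A (25.6).

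None of 20 groups of class shares stood out. Of 4 groups of UMI shares 1 did, the pancreas genes in library B at 0.0269% of UMIs, where Ins2 alone had 16470 UMIs.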

How the results depend on the processing

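The number of whole-liver genes called ran from 6835 to 8163 over all alternatives against 7835, called list members from 322 to 372 against 344, called class shares from 6 to 9 against 8, and called pairs of class and gene from 37040 to 49896 against 47128. Leaving out 1 library at a time gave 6835 to 7692 genes, 322 to 355 list members, 6 to 9 shares and 41416 to 45460 pairs. The replicate numbers do not pair the samples, and with a replicate block 7621 genes, 340 list members, 7 shares and 45956 pairs passed. The monocyte-like share did not pass with that block (edgeR adjusted p = 0.0576). Of 2410 refits of genes named in whole liver 2330 kept direction and call, 71 kept direction only and 9 changed sign. Within classes 1564 of 1565 refits kept direction and call. All these genes had been chosen for their calls in the same libraries, so the choice favoured agreement. These counts do not describe how stable the calls of other genes are.

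List medians changed sign without TMM for gluconeogenesis (0.33), fatty acid oxidation (0.53), endothelium (0.0072), mesenchyme (0.029), stem cells (0.13), cell cycle (0.48), clock (0.50) and hypoxia (0.37). These changes were the common shift of all genes from 0.02 to 0.61, since relative to all genes these 8 lists stayed between -0.60 and -0.078. With equal weight per barcode they did so for acute phase (0.17), gluconeogenesis (0.42), fatty acid oxidation (0.38), endothelium (0.61), mesenchyme (0.23), stem cells (0.12), cell cycle (0.047), immediate early (0.024), clock (0.34) and hypoxia (0.12), with all genes at 0.38. Relative to all genes the sign changed there for gluconeogenesis (0.042), fatty acid oxidation (0.0012), endothelium (0.23), bile acid (-0.12) and biliary lists (-0.16) and for none of the others, and the cause was not tested. The bile acid list did so with globins left out (-0.046), doublets removed (-0.018) and without libraries A and B (-0.095), and ran from -0.068 (without library A) to 0.25 (without B) when 1 library was left out. Without A and B the sign also changed for the biliary (-0.69) and cell cycle lists (0.042). Single genes changed sign with equal weight, namely Bmp2 (0.21), Gpr182 (0.32), Kdr (0.32), Col4a1 (0.13), Reln (0.83), Hdc (0.72) and Meis1 (0.26), and without TMM Reln (0.00016) and Meis1 (0.019). Of these values the first for Reln and that for Hdc lay above the shift of all genes. The basophil- and mast-like share changed sign at Leiden resolution 2 (0.74). Depth limits genes near 1 CPM and classes of few barcodes, such as the 23 high-UMI hepatocyte-like barcodes of library B.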

Other observations

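The basophil, mast and eosinophil list, given no paragraph above, had 6 rises and 3 falls among 15 tested genes in whole liver (median 0.23). The median ran from 0.0080 without library A to 0.49 without library B and was 0.57 without both, and with equal weight per barcode 8 rose and 1 fell (0.69). Prss34, a protease of basophils, was at 6.12, 18.96, 8.25, 5.85 and 3.97 CPM at E16.5 and 41.8, 7.72, 46.3 and 19.3 CPM at P3, and Prg2, an eosinophil granule protein, at 4.97, 3.46, 3.88, 2.43 and 3.92 CPM at E16.5 and 17.8, 1.08, 16.8 and 8.61 CPM at P3. Both were higher at P3 on average (1.74 and 1.57), and Prg2 did not pass in edgeR's test when any of several single libraries was left out (adjusted p up to 0.101). Among monocyte genes 4 of 13 rose and 2 fell (median 0.45, but 0.04 without libraries A and B), against 8 and 1 without TMM and 10 and 1 with equal weight per barcode. Fn1, fibronectin, fell (-0.98) and Ace, which marks nonclassical monocytes, rose (4.45).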
